A study of Rattus norvegicus with 63 samples.

Results

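Hepatic drug and organic anion transporters are the membrane proteins that carry drugs, bile pigments, hormones and their conjugates into and out of the hepatocyte. The members were the 7 genes Abcc3, Abcc2, Abcb1a, Abcg2, Slco1a1, Slco1a4 and Slco1b2, chosen by gene symbol, and 6 of the 7 were measured, out of 10411 genes with a symbol of their own on the array. No probe set carried the symbol Abcg2, the breast cancer resistance protein, so it has no value here. Where a gene had several probe sets, the brightest on average across the 63 arrays was used. The expression level is the log2 value that the authors deposited, and a change is the difference of 2 group means on that scale, with its standard error (SE) and with 3 animals against 3.

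Livers of male Wistar Hanover rats aged 8 to 10 weeks at the start were profiled on Affymetrix RAE230A arrays, 1 array for each animal, after oral gavage of 1 of 15 compounds or of vehicle alone. Every group held 3 animals. Those of a compound were picked by the study from groups of 5 because histopathology showed some liver change, so they are separate animals but no random draw, and how the control animals were chosen is not given in the sources used here. The study asked which liver profiles after short dosing set apart 3 classes of compound: carcinogens that are not genotoxic (NGC), those that are (GC) and compounds without liver carcinogenicity (NC).

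By the labels, 6 compounds shared the methylcellulose control set 1: acetamide (AA, 3000 mg/kg/d, 14 days), dehydroepiandrosterone (DHEA, 600 mg/kg/d, 14 days), methylcarbamate (Mcarb, 400 mg/kg/d, 14 days), methapyrilene (MPy, 60 mg/kg/d, 7 days), thioacetamide (TAA, 19.2 mg/kg/d, 7 days) and Wy-14643 (Wy, 60 mg/kg/d, 3 days). Cefuroxime (CFX, 250 mg/kg/d, 14 days) and nifedipine (Nif, 3 mg/kg/d, 14 days) shared methylcellulose set 2. Diethylstilbestrol (DES, 10 mg/kg/d, 3 days), ethionine (ETH, 200 mg/kg/d, 14 days) and piperonylbutoxide (PBO, 1200 mg/kg/d, 3 days) shared methylcellulose set 5, and phenobarbital (PB, 14 days, no dose in the labels) had methylcellulose set 6. In corn oil, C.I. Direct Black (CIDB, 146 mg/kg/d, 7 days) and dimethylnitrosamine (DMN, 4 mg/kg/d, 7 days) shared set 3, and cyproterone acetate (CPA, 100 mg/kg/d, 14 days) had set 4. The methylcellulose controls are all labelled 14 days, so DES, PBO, Wy, MPy and TAA differ from their controls in labelled days, whereas the paper describes controls matched in time. It names the vehicle methylcellulose, as the labels do, in one place and carboxymethyl cellulose in another. Compounds that share a control set are not independent of each other.

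Uptake from the blood is the task of the organic anion transporting polypeptides, encoded by the Slco genes, which sit in the sinusoidal membrane. Export needs ATP and is the task of the Abc proteins: some pump conjugates and drugs across the canalicular membrane into bile, and Abcc3 returns conjugates to the blood across the basolateral membrane. Several of these genes are known targets of the xenobiotic receptors CAR and PXR and of the oxidative stress factor NRF2.

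The 3 Slco members lie in 1 cluster on chromosome 4. In the RefSeq table (GRCr8) the order there is Slco1c1, Slco1b2, Slco1a4, Slco1a1, Slco1a3, Slco1a6, Slco1a5. Slco1a1 and Slco1a4 are close relatives with different lists of calls below. The 250 bases before 1 listed start site of each are therefore shown. Bases that are identical in an alignment of the pair are in capitals. The first stretch is chr4:176681993-176682242 on the minus strand and the second chr4:176495847-176496096 on the minus strand. The Slco1a1 gene span ends at 176682027, so the last bases of its stretch lie inside the gene. The Slco1a4 span ends at 176495846, next to its stretch.

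Slco1a1: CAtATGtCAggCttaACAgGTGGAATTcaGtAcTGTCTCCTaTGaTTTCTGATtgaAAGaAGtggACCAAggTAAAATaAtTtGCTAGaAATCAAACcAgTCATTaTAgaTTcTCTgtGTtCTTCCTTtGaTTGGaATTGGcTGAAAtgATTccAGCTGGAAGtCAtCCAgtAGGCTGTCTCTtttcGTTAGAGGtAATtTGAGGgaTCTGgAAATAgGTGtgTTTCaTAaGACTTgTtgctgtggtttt
Slco1a4: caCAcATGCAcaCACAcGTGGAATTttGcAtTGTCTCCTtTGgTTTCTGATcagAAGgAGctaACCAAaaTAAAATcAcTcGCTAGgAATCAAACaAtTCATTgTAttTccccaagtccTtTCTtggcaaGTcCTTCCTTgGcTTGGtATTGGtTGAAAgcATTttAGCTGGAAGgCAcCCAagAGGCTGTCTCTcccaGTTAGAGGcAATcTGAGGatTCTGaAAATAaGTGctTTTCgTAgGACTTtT

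Over the 234 aligned positions of the pair, with 32 gap columns left out, 74.8% were identical. Between Slco1a1 and Slco1b2 it was 58.7% and between Slco1a4 and Slco1b2 60.1%, each over 218 positions with 64 gap columns left out. Unrelated stretches were not aligned, so the identity to be met without relation was not measured. Neither stretch held the nuclear receptor hexamer AGGTCA, the antioxidant response core TGACNNNGC or the xenobiotic response core GCGTG, searched on both strands. These letters were present in 14.1%, 10.1% and 25.9% of the 33469 RefSeq promoters of the same length. The hexamer was present in Slco1b2, starting 78 bases before the start site on the minus strand, and in Abcc2, where 2 copies began 155 bases before it on the plus strand and 115 bases before it on the minus strand. The Abcc2 stretch is chr1:252613625-252613874 on the plus strand (GRCr8), printed because this gene moved in both directions, with the 2 hexamers in capitals.

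Abcc2: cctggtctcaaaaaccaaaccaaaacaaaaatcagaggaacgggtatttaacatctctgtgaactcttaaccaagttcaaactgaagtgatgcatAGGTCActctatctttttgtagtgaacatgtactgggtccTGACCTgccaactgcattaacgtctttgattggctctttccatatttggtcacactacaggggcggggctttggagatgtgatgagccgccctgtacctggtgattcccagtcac

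The Abcb1a stretch, chr4:26397649-26397898 on the minus strand, held none of the 3 motifs. It lies inside the gene span of 26312403 to 26488456 and not at its outer end, where no sequence was searched. Abcc3 had no entry in the table. A match is a run of letters and not a shown binding site.

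The transporters were called in 29 of 90 tests of a member in a compound (32.2%), with 22 rises and 7 falls, while over all probe sets 9.15% of such tests were called. A call is an adjusted p under 0.05 from limma with Benjamini-Hochberg adjustment over all 15866 probe sets. Abcc3 was called in 7 of 15 compounds (7 up, 0 down), Abcc2 in 6 (4 up, 2 down), Abcb1a in 6 (6 up, 0 down), Slco1a4 in 6 (5 up, 1 down), Slco1a1 in 3 (0 up, 3 down) and Slco1b2 in 1 (0 up, 1 down). The median probe set was called in 1 compound. Of all probe sets, 1.65% were called in 7 or more compounds, 3.57% in 6 or more, 20.6% in 3 or more and 57% in 1 or more, so Slco1b2 lay near the background and Abcc3 far above it. The calls depended on the fit: with the 6 arrays of each comparison fitted alone, 20 of the 29 were kept, 9 were lost and 6 others were gained. A change beyond 2.5-fold was reached in 4 of the 29 cases, 3 of them for Abcc3 and 1 for Slco1a4.

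**Figure D1:**
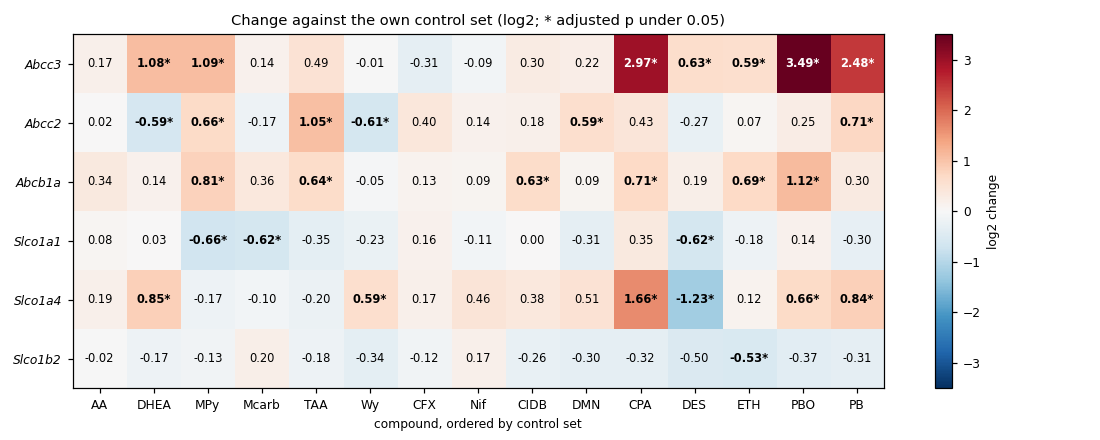
Change of each transporter (rows) against the control set of the compound (columns), as log2 of treated over control, from blue (lower) to red (higher); an asterisk marks an adjusted p under 0.05 in limma with 3 animals against 3. The 3 deepest red fields are Abcc3 in PBO (3.49), CPA (2.97) and PB (2.48), and the deepest blue field is Slco1a4 in DES (-1.23).

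Read by compound, MPy moved the most members, with 4 of 6 called where 6.32% of all probe sets were. PB called 3 of 6, all higher, although just 1.35% of all probe sets were called in it. CPA also called 3 of 6, all higher, beside 7.85% of all probe sets, and PBO 3 of 6, all higher, beside 14.5%. The other compounds with 3 calls had broader responses: DES (15.5% of all probe sets), DHEA (17.7%) and ETH (23.5%) each gave rises and falls among the members. TAA called 2 members (6.4% of all probe sets) and Wy 2 (12.9%). CIDB (13.9%), DMN (3.23%) and Mcarb (1.07%) called 1 member each. No member was called by limma in AA (4.66% of all probe sets), CFX (0.0063%) or Nif (8.46%), where 0, 1 and 1 members had an unadjusted p under 0.05. A separate limma fit of the 6 arrays called 0 in AA, 0 in CFX and 1 in Nif, which was Slco1a4.

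Abcc3, the basolateral exporter of glucuronides, had the largest changes of the group. Under PBO its levels were 10.62, 10.00 and 9.97, against 6.58, 6.92 and 6.62 in methylcellulose set 5. Under CPA they were 9.56, 9.41 and 9.96, against 6.91, 6.57 and 6.55 in corn oil set 4. Under PB they were 9.27, 8.76 and 9.29, against 6.56, 6.74 and 6.58 in methylcellulose set 6. All animals of the 3 compounds stood far above all of their controls, and the 3 groups did not overlap with each other either, in the order PBO, CPA and PB.

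Abcc3 thus rose 11.2-fold in PBO (3.49 ± 0.214 SE, adjusted p = 4.81e-17, limma), 7.84-fold in CPA (2.97, adjusted p = 1.68e-14) and 5.58-fold in PB (2.48, adjusted p = 1.23e-11). The SE of an Abcc3 change was 0.214 in every compound, because the model shares 1 spread per gene over all groups. These 3 calls and Slco1a4 in CPA were the 4 of 29 that held under every alternative setting tried. They also held with each of the 63 arrays left out in turn. One of the settings was the 2.5-fold criterion, which by itself lost the other 25 calls, so this count follows the size of the change. With each array left out in turn and no fold criterion, 14 of the 29 calls held.

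Abcc3 also rose in MPy and DHEA, by about the same amount. The MPy animals read 7.92, 7.78 and 7.63 and the DHEA animals 8.19, 7.51 and 7.62, against 6.54, 6.71 and 6.81 in methylcellulose set 1. All 6 treated animals were above the 3 controls. The changes were 1.09 (2.12-fold, adjusted p = 0.000517, limma) in MPy and 1.08 (2.12-fold, adjusted p = 0.000177) in DHEA.

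The remaining 2 calls of Abcc3 were each lost when certain single animals were left out. The DES animals read 8.20, 6.84 and 6.97 against the set 5 controls given above, so 1 animal was high and the other two overlapped with or lay next to the controls. The DES change of 0.63 (adjusted p = 0.0371, limma) became 0.20 (adjusted p = 0.6) without animal 1. In the fit of the 6 arrays alone its adjusted p was 0.265. It also lost its call without control animal 1 (0.56, adjusted p = 0.117) or control animal 3 of set 5 (0.59, adjusted p = 0.102). The ETH animals read 6.92, 7.75 and 7.22, just above the controls, and gave 0.59 (adjusted p = 0.0383, limma; 0.0738 in the fit of the 6 arrays alone). Without ETH animal 2 that change was 0.36 (adjusted p = 0.316), without ETH animal 3 0.63 (adjusted p = 0.0569), and without control animals 1 or 3 of set 5 0.52 (adjusted p = 0.112) and 0.55 (adjusted p = 0.11).

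In the other 8 compounds Abcc3 was not called. Changes ran from -0.31 in CFX (95% interval -0.74 to 0.12) to 0.49 in TAA (0.06 to 0.92, adjusted p = 0.178, limma). The TAA animals, at 7.01, 7.29 and 7.25, were nonetheless all above their controls, and TAA was called by the fit of the 6 arrays alone (adjusted p = 0.0271) and against all methylcellulose controls (0.47, adjusted p = 0.0479). Control levels of Abcc3 were steady, with means of the 6 sets between 6.63 and 6.81. In the order of the 21 group means, the animals of 16 of the 20 neighbouring pairs overlapped, and the gaps were those below PBO, below CPA, below PB and above CFX.

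**Figure D2:**
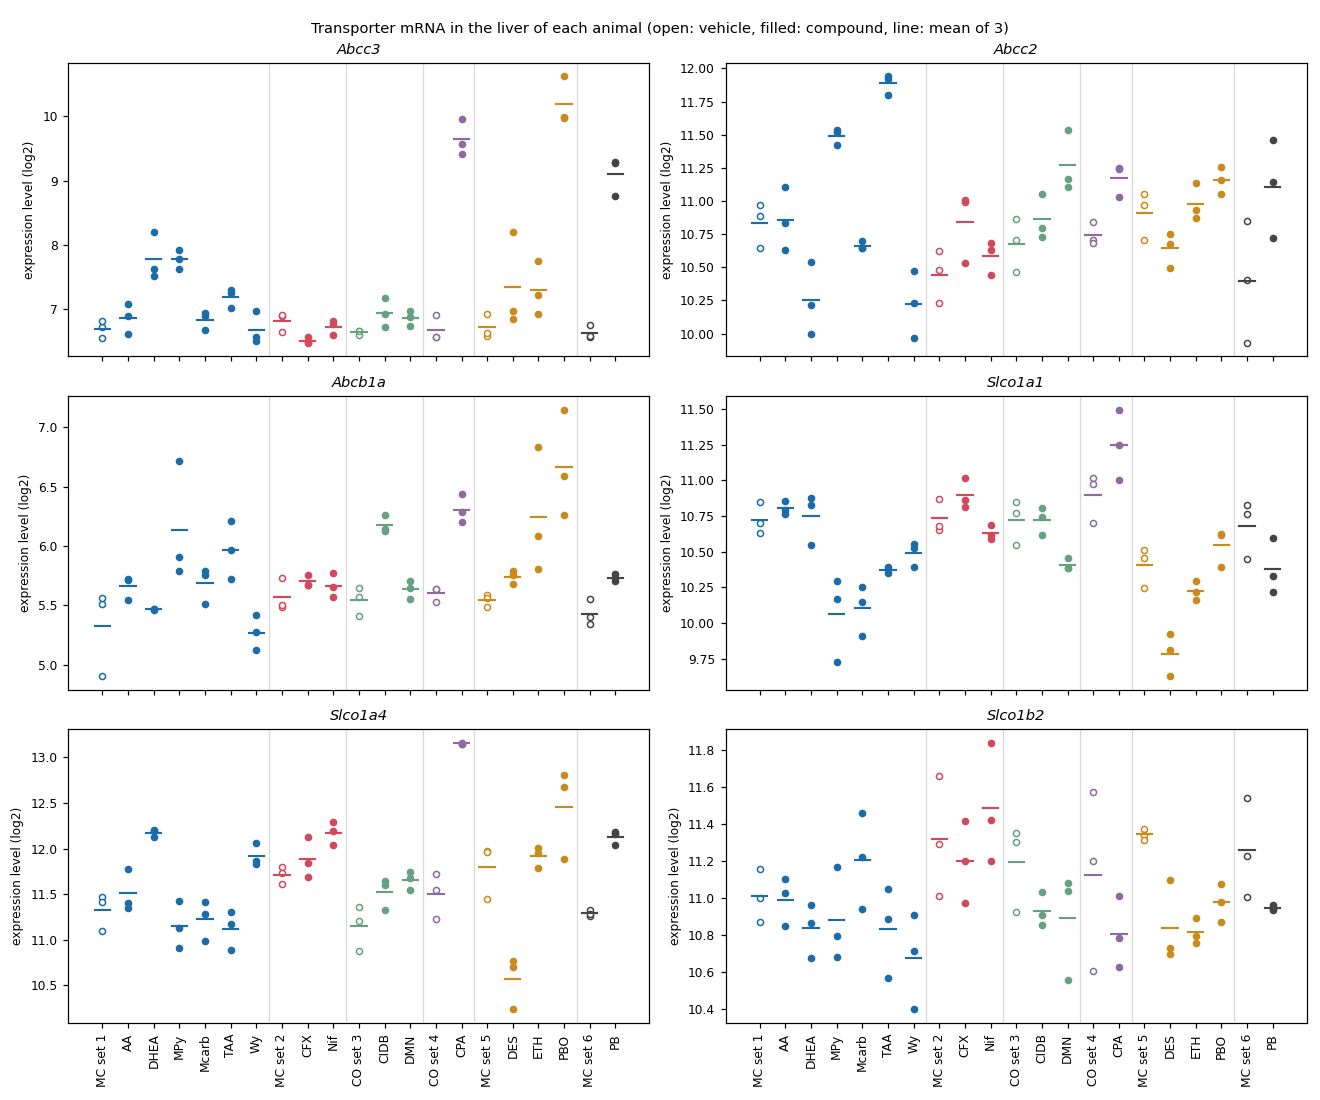
Expression level (vertical axis, log2) of the 6 measured transporters in each of the 63 animals, with groups on the horizontal axis ordered by control set (MC methylcellulose, CO corn oil); open circles are vehicle animals, filled circles dosed animals, lines the means of 3, and each panel has its own scale. In the Abcc3 panel the PBO, CPA and PB animals lie between 8.76 and 10.62, above the controls, which lie between 6.54 and 6.92.

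Abcc2, the canalicular pump for bilirubin glucuronide and other conjugates, moved in both directions. Its TAA levels were 11.92, 11.80 and 11.94, its MPy levels 11.54, 11.42 and 11.52, its DHEA levels 10.21, 10.54 and 10.00 and its Wy levels 10.47, 9.97 and 10.23, all against 10.97, 10.64 and 10.89 in methylcellulose set 1. The TAA and MPy animals were all above these controls and the DHEA and Wy animals all below. TAA animals had the highest Abcc2 levels in the series, above every animal of every other group.

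Abcc2 rose 2.07-fold in TAA (1.05 ± 0.166 SE, adjusted p = 3.1e-05, limma) and 1.58-fold in MPy (0.66, adjusted p = 0.00822). It fell 1.5-fold in DHEA (-0.59, adjusted p = 0.00927) and 1.53-fold in Wy (-0.61, adjusted p = 0.00834). Wy-14643 and DHEA are both known peroxisome proliferators in rat liver. The MPy call was lost without control animal 2 of set 1 (0.56, adjusted p = 0.0706). The DHEA call was lost without DHEA animal 3 (-0.46, adjusted p = 0.0974) or control animal 1 (-0.52, adjusted p = 0.0565), and the Wy call without Wy animal 2 (-0.48, adjusted p = 0.101) or control animal 1 (-0.54, adjusted p = 0.0547).

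In DMN, Abcc2 read 11.17, 11.53 and 11.10 against 10.87, 10.46 and 10.70 in corn oil set 3. No animals overlapped, and the rise was 0.59 (1.51-fold, adjusted p = 0.0327, limma), with an adjusted p of 0.0596 in the fit of the 6 arrays alone. The call was lost without DMN animals 1 or 2 (adjusted p = 0.0607 and 0.211, at 0.64 and 0.46) and without control animals 2 or 3 (adjusted p = 0.223 and 0.0883, at 0.48 and 0.61).

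In PB, Abcc2 read 11.14, 10.72 and 11.46, against a wide 9.93, 10.85 and 10.40 in methylcellulose set 6. The groups overlapped, and the change of 0.71 (1.64-fold, adjusted p = 0.0152, limma) depended on those controls. It was 0.46 (adjusted p = 0.0587) against all methylcellulose controls and had an adjusted p of 0.524 in the fit of the 6 arrays alone. Without control animal 1 it was 0.48 (adjusted p = 0.368), without PB animal 1 0.70 (adjusted p = 0.0778) and without PB animal 3 0.54 (adjusted p = 0.154).

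The other 9 compounds left Abcc2 uncalled, between -0.27 in DES and 0.43 in CPA. The CPA animals, at 11.25, 11.24 and 11.03, were above 10.70, 10.68 and 10.84 in corn oil set 4, with an adjusted p of 0.0987 in the shared limma fit and 0.0231 in the fit of the 6 arrays alone. PBO gave 0.25, and 0.51 (adjusted p = 0.0108) against all methylcellulose controls. In 19 of the 20 neighbouring pairs of group means the animals overlapped, and the exception was the step from TAA to MPy.

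Abcb1a encodes a P-glycoprotein, a canalicular pump for bulky hydrophobic drugs. It was dim on this array, with a mean level of 5.76 that only 16.9% of probe sets lay below, and all of its 6 calls were rises. No background level or detection call was used here, so how far the folds of this dim probe set are compressed was not tested. Under PBO it read 7.15, 6.59 and 6.26 against 5.59, 5.56 and 5.49 in methylcellulose set 5, and under CPA 6.28, 6.20 and 6.43 against 5.63, 5.53 and 5.63 in corn oil set 4. The dosed animals were all above their controls. The rises were 2.17-fold in PBO (1.12 ± 0.178 SE, adjusted p = 7.69e-06, limma) and 1.63-fold in CPA (0.71, adjusted p = 0.00741).

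The MPy animals read 5.91, 5.79 and 6.71 and the TAA animals 6.21, 5.96 and 5.72, against 4.90, 5.51 and 5.56 in methylcellulose set 1. Both groups lay above the controls, but with 1 high animal in MPy and 1 low control. Abcb1a rose by 0.81 in MPy (adjusted p = 0.00187, limma) and by 0.64 in TAA (adjusted p = 0.0198). Neither was called with the 6 arrays fitted alone (adjusted p = 0.0914 and 0.0799). Without control animal 1 these were 0.60 (adjusted p = 0.0556) and 0.43 (adjusted p = 0.228), without MPy animal 3 the first was 0.52 (adjusted p = 0.0825), and without TAA animal 1 the second was 0.52 (adjusted p = 0.148).

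The ETH animals read 5.80, 6.83 and 6.09 and the CIDB animals 6.14, 6.12 and 6.26, the latter against 5.57, 5.65 and 5.41 in corn oil set 3. Neither overlapped with its controls. Abcb1a rose by 0.69 in ETH (adjusted p = 0.0024, limma), which was 0.40 without ETH animal 2 (adjusted p = 0.112) and had an adjusted p of 0.0648 in the fit of the 6 arrays alone. It rose by 0.63 in CIDB (adjusted p = 0.0105), which was 0.59 without CIDB animal 3 (adjusted p = 0.0503) and 0.57 without control animal 3 (adjusted p = 0.0624).

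A second probe set of Abcb1a called CIDB (1.00), CPA (1.08), MPy (0.93) and PBO (1.24). It did not call ETH (0.42, adjusted p = 0.25, limma) or TAA (0.31, adjusted p = 0.559). All 20 neighbouring pairs in the order of Abcb1a means overlapped, so the order of its levels is loose.

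A probe set annotated to both Abcb1a and its neighbour Abcb1b, the second rodent P-glycoprotein gene, was no member by the rule and was added after its values were seen. It read 12.94, 12.45 and 12.84 in CIDB and 11.35, 11.30 and 11.42 in DMN, against 7.04, 6.85 and 7.13 in corn oil set 3. It read 10.17, 10.93 and 10.84 in ETH against 6.40, 6.81 and 6.29 in methylcellulose set 5. The dosed animals stood far apart from the controls in all 3 compounds.

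This shared probe set rose 53.3-fold in CIDB (5.74 ± 0.24 SE, adjusted p = 2.28e-24, limma), 20.4-fold in DMN (4.35, adjusted p = 1.36e-18) and 17.8-fold in ETH (4.15, adjusted p = 1.03e-18). MPy (9.3-fold), TAA (6.5-fold), DES (3.52-fold), PBO (3.15-fold), Mcarb (2.08-fold) and AA (1.8-fold) were called too. In DMN the Abcb1a probe sets alone changed by 0.09 (95% interval -0.26 to 0.45) and 0.10. The signal of the shared probe set cannot be divided between the 2 genes here.

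**Figure D3:**
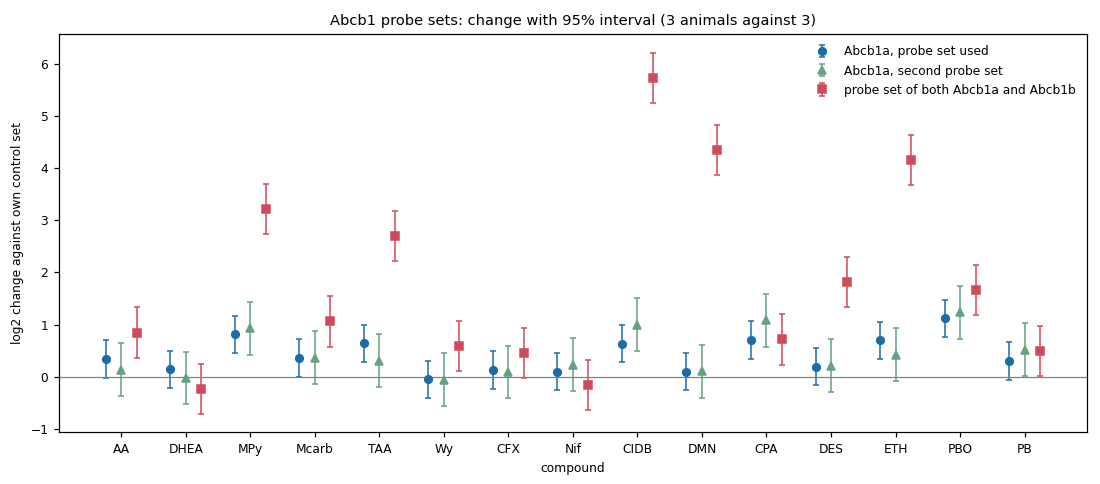
Change (vertical axis, log2 of treated over control) in each compound (horizontal axis) of the probe set used for Abcb1a (circles), a second Abcb1a probe set (triangles) and a probe set annotated to both Abcb1a and Abcb1b (squares); bars are 95% intervals from limma, 3 animals against 3. The shared probe set reaches 5.74 in CIDB and 4.35 in DMN, where the Abcb1a probe set used reads 0.63 and 0.09.

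Slco1a4, an uptake carrier of organic anions and of cardiac glycosides, had the widest range of the uptake genes. Under CPA its levels were 13.16, 13.15 and 13.15, against 11.72, 11.22 and 11.55 in corn oil set 4. Under DES they were 10.77, 10.70 and 10.24, against 11.98, 11.97 and 11.45 in methylcellulose set 5. The CPA animals were above every other animal of the series, and the DES animals below every other animal.

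Slco1a4 rose 3.15-fold in CPA (1.66 ± 0.167 SE, adjusted p = 8.23e-10, limma) and fell 2.34-fold in DES (-1.23, adjusted p = 2.49e-07). A second probe set gave 1.49 in CPA and -1.39 in DES. Both calls held in all refits with 1 array left out.

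In DHEA, Slco1a4 read 12.20, 12.12 and 12.19, and in Wy 12.06, 11.87 and 11.83, against 11.47, 11.09 and 11.41 in methylcellulose set 1. In PB it read 12.04, 12.19 and 12.16, against 11.33, 11.26 and 11.29 in methylcellulose set 6. These dosed animals were all above their controls. The rises were 1.8-fold in DHEA (0.85, adjusted p = 0.000182, limma), 1.79-fold in PB (0.84, adjusted p = 0.00296) and 1.51-fold in Wy (0.59, adjusted p = 0.0114). Against all methylcellulose controls PB gave 0.60 (adjusted p = 0.014) and Wy 0.39 (adjusted p = 0.0582). The Wy call was also lost without Wy animal 1 (0.52, adjusted p = 0.0571) or control animal 2 (0.48, adjusted p = 0.0984).

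The PBO animals read 12.68, 12.81 and 11.88, and the lowest overlapped with the set 5 controls. The rise of 0.66 (1.58-fold, adjusted p = 0.00413, limma) was 0.48 without PBO animal 2 (adjusted p = 0.0744) and 0.48 without control animal 3 (adjusted p = 0.0713). It was not called with the 6 arrays fitted alone (adjusted p = 0.135), while against all methylcellulose controls it was 0.92 (adjusted p = 6.78e-06). The second probe set gave 1.43 in PBO, with no overlap of the animals, and it also called AA (0.80, adjusted p = 0.0216), where the first gave 0.19. The uncalled compounds ran from -0.20 in TAA to 0.51 in DMN, and Nif gave 0.46 (adjusted p = 0.0765), which the fit of the 6 arrays alone called (adjusted p = 0.0157), as did pooled controls (0.64, adjusted p = 0.00213). Pooled controls also called ETH, at 0.38 (adjusted p = 0.0467) beside 0.12 against its own controls. In 18 of the 20 neighbouring pairs of Slco1a4 group means the animals overlapped, and the clear steps were those below CPA and above DES.

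Slco1a1, the major uptake carrier of male rat liver for sulphate and glucuronide conjugates, fell in all 3 of its calls against the own control set of each compound. It read 10.29, 9.73 and 10.17 in MPy and 10.25, 10.15 and 9.91 in Mcarb, against 10.85, 10.70 and 10.63 in methylcellulose set 1. It read 9.92, 9.81 and 9.63 in DES, against 10.46, 10.51 and 10.24 in methylcellulose set 5. None of these animals overlapped with its controls.

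Slco1a1 fell 1.58-fold in MPy (-0.66 ± 0.119 SE, adjusted p = 0.000134, limma), 1.54-fold in Mcarb (-0.62, adjusted p = 0.00174) and 1.54-fold in DES (-0.62, adjusted p = 0.000122). Without Mcarb animal 3 the Mcarb change was -0.53 (adjusted p = 0.0684), and in the fit of the 6 arrays alone Mcarb was not called (adjusted p = 0.126). Of the 12 uncalled compounds, TAA at -0.35 (adjusted p = 0.0641) and CPA at 0.35 (adjusted p = 0.0543) came closest to a call. The CPA animals read 11.25, 11.01 and 11.50 and overlapped with corn oil set 4 at 11.02, 10.70 and 10.98. Against all corn oil controls CPA was called as a rise (0.44, adjusted p = 0.00626), as it was without the dimmest probe sets (adjusted p = 0.0479). Pooled controls also called falls in ETH (-0.41, adjusted p = 0.00124, beside -0.18 against its own controls) and DMN (-0.40, adjusted p = 0.0266), and the fit of the 6 arrays alone called a fall in TAA (adjusted p = 0.0328). The animals of 19 of 20 neighbouring pairs of Slco1a1 group means overlapped.

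The related carriers thus had different lists of calls. DES lowered both, CPA, DHEA, PB, PBO and Wy raised Slco1a4 and did not call Slco1a1, and MPy and Mcarb lowered Slco1a1 and did not call Slco1a4. In DHEA the 95% interval was -0.21 to 0.27 for Slco1a1 and 0.51 to 1.18 for Slco1a4. In Mcarb it was -0.86 to -0.38 for Slco1a1 and -0.43 to 0.24 for Slco1a4. The difference between the 2 genes within a compound was not tested. Over the 21 group means the levels of the 2 genes had r = 0.57.

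**Figure D4:**
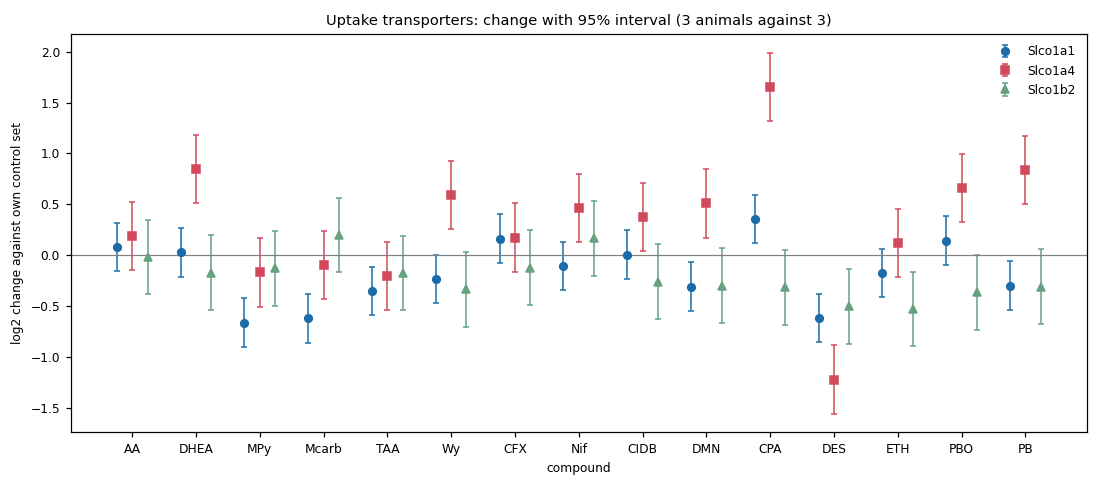
Change (vertical axis, log2 of treated over control) of the 3 uptake transporters in each compound (horizontal axis), with 95% intervals from limma and 3 animals against 3. Slco1a4 (squares) spans -1.23 in DES to 1.66 in CPA, Slco1a1 (circles) -0.66 in MPy to 0.35 in CPA, and Slco1b2 (triangles) -0.53 in ETH to 0.20 in Mcarb.

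Slco1b2, the liver-specific carrier that corresponds to the human OATP1B proteins, changed least. It read 10.89, 10.76 and 10.79 in ETH, against 11.37, 11.34 and 11.31 in methylcellulose set 5. The groups did not overlap, and the fall was 1.44-fold (-0.53 ± 0.182 SE, adjusted p = 0.0282, limma). The call was lost without ETH animals 2 or 3 (adjusted p = 0.0853 and 0.0665, at -0.50 and -0.52) and without control animals 1, 2 or 3 of set 5 (adjusted p = 0.0651, 0.0649 and 0.055, at -0.51, -0.53 and -0.54).

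With array weights ETH was not called (adjusted p = 0.104), nor with the mean of the probe sets of the gene (-0.46, adjusted p = 0.0679). The DES animals, at 10.70, 10.73 and 11.09, were also below those controls (-0.50, adjusted p = 0.0525, and 0.0232 in the fit of the 6 arrays alone). That fit called PBO too (adjusted p = 0.0294), and pooled controls called DHEA (-0.40, adjusted p = 0.0441, beside -0.17). Elsewhere Slco1b2 ran from -0.37 in PBO to 0.20 in Mcarb. A second probe set of the gene did not call ETH (-0.39, adjusted p = 0.206, limma) and called Wy alone, where it read 9.14, 8.58 and 8.87 against 9.68, 9.81 and 9.73 in methylcellulose set 1 (-0.88, adjusted p = 0.00341). The probe set used gave -0.34 (adjusted p = 0.265) in Wy against set 1, so there the 2 probe sets differed in what was called. Against all methylcellulose controls it gave -0.56 and was called (adjusted p = 0.00345), as was the mean of the probe sets against set 1 (-0.61, adjusted p = 0.0221). All 20 neighbouring pairs of Slco1b2 group means overlapped.

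The 3 small amides and carbamates of the series, AA, TAA and Mcarb, were given at different doses, and TAA for fewer days, so their values stand side by side without a comparison. Abcc2 changed by 0.02 in AA, 1.05 in TAA and -0.17 in Mcarb. Abcb1a changed by 0.34, 0.64 and 0.36, and Slco1a1 by 0.08, -0.35 and -0.62. All 3 compounds were measured against the same controls.

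Control sets of 1 vehicle show how far the transporters drift without a compound. In methylcellulose set 5 against set 6, 2 of 6 members were called (10.2% of all probe sets): Abcc2 was higher by 0.51 (adjusted p = 0.0371, limma) and Slco1a4 by 0.51 (adjusted p = 0.0427). PB was compared with set 6 alone, and DES, ETH and PBO with set 5 alone. In the other 6 pairs limma called 0 members: set 1 against 2 (0.914% of all probe sets), 1 against 5 (2.14%), 1 against 6 (7.77%), 2 against 5 (2.72%), 2 against 6 (1.95%) and the corn oil sets 3 against 4 (0.466%), which also differ in days. At an unadjusted p under 0.05 these pairs gave 2, 2, 1, 2, 1 and 1 members. The means of the 6 sets spanned 10.39 to 10.91 for Abcc2, 11.15 to 11.80 for Slco1a4 and 10.40 to 10.90 for Slco1a1, but 6.63 to 6.81 for Abcc3.

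The carcinogen classes were compared over compounds, with 8 NGC (PB, PBO, DHEA, AA, MPy, Mcarb, DES, ETH), 2 GC (CIDB, DMN) and 2 NC (CFX, Nif). Limma called 0 of 6 members for NGC against GC (0.0819% of all probe sets), 0 for NGC against NC (0.0189%) and 0 for NGC and GC against NC (0.0126%). At an unadjusted p under 0.05 the counts were 0, 0 and 0 in limma and 0, 0 and 0 in the exact permutation test over compounds. Abcc3 had the largest class difference, with a mean change of 1.21 over the NGC and -0.20 over the NC (1.41 ± 0.739 SE, exact two-sided permutation p = 0.111, 0.601 after adjustment over the 18 tests). The smallest p such a test can reach is 0.0222 for 8 against 2 compounds and 0.0152 for 10 against 2. Within the NGC, Abcc3 changed by 3.49 in PBO and by 0.14 in Mcarb, so the spread inside the class was wide. The paper selected its mRNA signatures by machine learning on fold changes of single samples, which is another unit and method. Its signature for carcinogens against NC holds Abcc3 and Abcb1a, and that for NGC against GC holds Abcc3.

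Each transporter was also set against all 10410 other genes by Pearson's r over the 21 group means, as a description of pattern with the top 3 genes picked by that r. Abcc3 was most like Gpx2 (glutathione peroxidase, r = 0.889), Gsr (glutathione reductase, 0.888) and Gsta4 (a glutathione transferase, 0.869). Abcb1a was most like Gsta3 (0.848), Gstm1 (0.841) and Akr7a3 (0.808), and Abcc2 like Gstm1 (0.762), Gstm3 (0.757) and Akr7a3 (0.746), which are glutathione transferases and an aldehyde reductase. The group means share control sets and 1 normalization, and a high r was assured by the choice among so many genes.

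The uptake carriers had other neighbours. Slco1a4 was most like Cpped1 (r = 0.825), Sh3glb2 (0.782) and Sc5d (a sterol desaturase, 0.758). Slco1a1 was most like Chm (0.816), Xrn1 (an exoribonuclease, 0.795) and Rdh11 (a retinol dehydrogenase, 0.783), and Slco1b2 like Twsg1 (0.844), Hexim1 (0.834) and Prodh (proline dehydrogenase, 0.831). Among the members themselves, r was 0.70 for Abcc3 with Abcb1a, 0.61 for Abcc3 with Slco1a4, 0.60 for Abcc2 with Abcb1a, 0.57 for Slco1a1 with Slco1a4 and -0.39 for Abcc3 with Slco1b2. The other 10 pairs lay between -0.30 and 0.37.

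Of 37 other hepatic transporters on a list, 27 were measured. ETH lowered 10 and raised 2, DES lowered 6 and raised 1, and PB called 0 of the 27 by limma (3 at an unadjusted p under 0.05) while it called 3 of the 6 members. The list's median change in PB was near 0 and -0.10 in ETH, against 0.51 and 0.10 for the members and 0.01 and -0.03 for all probe sets.

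The list members called most often were all lowered. Abcc6, a relative of the Abcc members, fell in 8 compounds, by up to 1.59 in ETH (3.02-fold, adjusted p = 3.67e-15, limma). Slc22a8 (an organic anion carrier) fell in 7, by up to 1.82 in DES (3.52-fold), and Slc29a1 (a nucleoside carrier) in 7, by up to 1.26 in DES (2.39-fold). Slc22a7 and Slc10a1, the sodium-dependent bile acid carrier, fell in 6 each, with -0.93 and -0.80 in ETH. In CPA, where Slco1a4 and Abcc3 rose, Slc22a8 fell by 1.75 (3.37-fold, adjusted p = 2.96e-06).

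**Figure D5:**
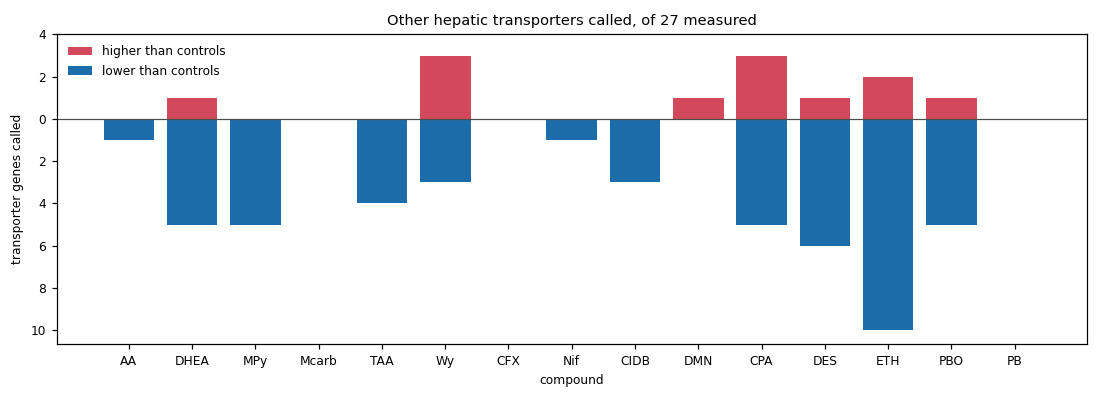
Number of the 27 measured other hepatic transporter genes (vertical axis) called higher (upward bars) or lower (downward bars) than controls in each compound (horizontal axis), adjusted p under 0.05 in limma. ETH has 10 lower and 2 higher, and PB, CFX and Mcarb have 0 (3, 2 and 3 at an unadjusted p under 0.05).

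Of 17 regulators of transporter genes, 16 were measured. Hnf4a, a master regulator of hepatocyte genes, was called in 5 compounds, Rxra (the partner of CAR, PXR and PPARalpha) in 4 and Stat5b (which relays growth hormone) in 4. In Nif, 6 of 16 regulators fell, with Hnf4a lower by 1.23 (2.35-fold, adjusted p = 1.59e-10, limma) and Rxra by 0.77. No transporter member was called there against its own controls in the shared fit, but Slco1a4 was with the 6 arrays fitted alone and with pooled controls. In AA, 5 of 16 rose, with Hnf4a higher by 0.85, and again the shared fit called no member, though it called the second Slco1a4 probe set (0.80, adjusted p = 0.0216, limma). In PB, CPA and MPy limma called 0 regulators (2, 4 and 3 at an unadjusted p under 0.05), and 3, 3 and 4 transporter members.

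Of 24 response genes of xenobiotic receptors, 18 were measured, and Cyp2b1 and Cyp3a23/3a1, the usual reporters of CAR and PXR, were not among them. PBO raised 12 of 18, with a list median of 0.85 against -0.02 over all probe sets. Ces2c, a carboxylesterase that was picked here after its values were seen, rose by 3.75 in PB, 3.56 in PBO, 3.21 in CIDB and 3.20 in CPA. Abcc3 changed by 2.48, 3.49, 0.30 and 2.97 in the same compounds. Ces2c was called higher in 11 compounds, and Abcc3 in 7. Elsewhere on the list, Por rose in 6 compounds, Ugt2b1 rose in 5 and fell in 1, and Cyp3a9 rose in 1 and fell in 4. Acot1, a PPARalpha target, rose by 7.41 in Wy and 7.16 in DHEA, the compounds in which Abcc2 fell. It was called higher in 4 compounds, whereas Abcc2 was called lower in 2. Among the other PPARalpha genes listed, Cyp4a1 rose in 4 compounds and fell in 3, Cyp4a3 rose in 4 and fell in 1, and Ehhadh rose in 3. Cyp1a1, the target of the dioxin receptor, rose by 2.67 in PBO, 2.62 in ETH and 1.78 in CIDB, and all 3 raised Abcb1a. Abcb1a also rose in CPA, MPy and TAA, where Cyp1a1 was not called. Of the other genes of that receptor on the list, Cyp1a2 fell in 4 compounds, by up to 1.30 in DMN, and rose in 0, and Cyp1b1 was called in 0 by limma (0 at an unadjusted p under 0.05). Nqo1, an NRF2 target, was called in 0 compounds by limma (2 at an unadjusted p under 0.05), with its highest change, 1.46, in TAA (adjusted p = 0.0616), where Abcc2 was highest. Other NRF2 targets on the list were called higher: Gclc in 3 compounds (TAA, PBO and ETH, by up to 0.85), Gclm in 2 (PBO 1.18, TAA 0.74), Hmox1 in 2 (ETH 0.79, PBO 0.77) and Txnrd1 in 2 (PBO 0.60, CIDB 0.44). Gclc and Gclm are the subunits of the enzyme that starts glutathione synthesis.

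The labelled tissue showed its markers. The 11 measured hepatocyte markers averaged 13.57 to 14.04 (log2) in every animal, and albumin was called in 0 of 15 compounds (0 at an unadjusted p under 0.05). In whole liver, fewer cells of a type and less RNA per cell cannot be told apart. Hepatocyte markers fell in Wy (8 of 11) and DHEA (7 of 11), where Abcc2 fell too, and their mean ran from 13.57 to 13.77 in Wy and from 13.66 to 13.74 in DHEA against 13.94 to 13.96 in methylcellulose set 1. In PBO, which had the largest Abcc3 rise, 4 of 11 fell and 1 rose, with a mean of 13.68 to 13.86 against 13.91 to 13.96 in set 5. CPA lowered 3 (13.79 to 13.87, against 13.94 to 14.03 in corn oil set 4), and DES lowered 3 and raised 2. Of 10 macrophage markers, 9 rose and 1 fell in ETH, 8 fell in DHEA, 6 in CPA and 5 in Wy. In CIDB 5 rose and 1 fell, in DMN 4 rose and 1 fell, and in Mcarb 2 rose (8 at an unadjusted p under 0.05), the compounds in which Abcb1a, Abcc2 and Slco1a1 were called in turn. Their mean level ran from 9.54 to 9.71 in CIDB and from 9.78 to 10.02 in DMN against 8.98 to 9.46 in corn oil set 3, and from 9.97 to 10.90 in Mcarb against 9.57 to 9.76 in set 1. It ran from 10.11 to 10.21 in ETH against 8.95 to 9.50 in set 5, and from 8.81 to 9.21 in CPA against 9.40 to 9.93 in corn oil set 4. Of 8 endothelial markers, 5 fell in DHEA, 5 in Wy, 3 in CPA and 2 in PBO. At most 2 of 9 biliary markers were called in any compound, but Epcam was called higher in 8 compounds (11 at an unadjusted p under 0.05) and Cldn7 lower in 3. In PB, where Abcc3 and Slco1a4 rose, limma called 0 of the hepatocyte and 0 of the macrophage markers (2 and 5 at an unadjusted p under 0.05, with a macrophage median of -0.43). The part of these cell markers in the transporter changes was not tested.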

How the data were processed

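The 63 liver arrays (Affymetrix RAE230A, 45 from dosed and 18 from vehicle animals) were deposited by the authors as log2 expression values. MAS 5.0 gave the CEL files, and the authors applied RMA from the affy package (version not stated), which corrects background, normalizes between arrays and summarises 1 log2 value per probe set. The values ran from 3.96 to 15.11 and array medians from 7.42 to 7.51, so nothing was normalized again. No 2 columns were identical, and the mean correlation of an array with its own group was 0.989 to 0.996. Hybridization dates were not given in the sources used here.

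Gene names came from the platform annotation: 12783 probe sets had 1 symbol, 312 several and 2771 none. Groups and control sets came from the sample labels. A model with 21 group means was fitted with limma 3.58.1 in R 4.3.3 (42 residual degrees of freedom, prior 4.81), compounds were contrasted with their labelled control sets, and the Benjamini-Hochberg adjustment ran over 15866 probe sets. With 3 animals a group, an exact test could not reach p under 0.05, and this number limits the precision. Class contrasts used compound means. The procedure was tested on simulated data of independent normal values without differences between control sets. That test does not measure how such differences affect the calls.

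The members, the gene lists (other transporters, regulators, receptor response genes, and hepatocyte, biliary, endothelial and macrophage markers) and the alternatives were chosen with earlier results of these data known. Genes were named by rule: all members, the 3 genes most like each, the most often called of the transporters and regulators, and 5 receptor response genes where measured. The alternatives were a fit of the 6 arrays of each comparison, pooled controls, array weights, a filter on dim probe sets, the mean of a gene's probe sets, median centring, a fold criterion, a trended robust prior, a replicate block and leaving out each array or compound. Promoters came from RefSeq (GRCr8) and were aligned with Biopython 1.88 in Python 3.11.15, and figures were drawn with matplotlib 3.10.9.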

Additional observations from a re-analysis of the deposited data

How the results depend on the processing

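Of the 29 calls, the fit of the 6 arrays of each comparison kept 20, lost 9 and gained 6 (26 in all), controls pooled by vehicle kept 27, lost 2 and gained 9 (36), array weights kept 25, lost 4 and gained 5 (30), and the mean of a gene's probe sets kept 27, lost 2 and gained 2 (29). Leaving out the dimmest 25% of probe sets removed Abcb1a and its 6 calls, kept the other 23 and gained 2 (25). Centring arrays on their median kept 29 and gained 1 (30), and a trended robust prior kept 29 and gained 0. Array weights lost Abcc3 in DES and ETH, Abcc2 in PB and Slco1b2 in ETH. No called change reversed its direction under the 5 alternatives for which single values were compared. In the fit of the 6 arrays it could not, since the change there is the same difference of means. Nor could it with the mean of probe sets for Abcc3, Abcc2 and Slco1a1, which have 1 probe set each. Asking for a change beyond 2.5-fold left 4 calls, 3 for Abcc3, 1 for Slco1a4 and 0 for Abcc2, Abcb1a, Slco1a1 and Slco1b2. The fit of 6 arrays called Abcb1a in 3 compounds and Slco1b2 in 3. Pooled controls called Slco1a1 in 6, 1 of them a rise, in CPA, and Slco1b2 in 3. Array weights called Slco1a1 in 5 and Slco1b2 in 0. Slco1b2 was called in 2 compounds without dim probe sets, with the mean of probe sets or with centring. The cause of these shifts was not tested. With 1 array left out, calls ran from 25 to 32 in all, 5 to 7 for Abcc3, 4 to 6 for Abcc2, 4 to 6 for Abcb1a, 3 to 5 for Slco1a1, 5 to 8 for Slco1a4 and 0 to 2 for Slco1b2, and 14 of the 29 calls held in all 63 refits.

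PB and CPA share replicate numbers with their controls. Deviations of same-numbered animals correlated between -0.153 and 0.165, so no pairing by number was visible, though so few animals cannot exclude one. With the replicate number as a block, the fit of 6 arrays called 4 members in CPA and 2 in PB, against 4 and 2 without the block. The class contrasts called 0 members in limma with own or pooled controls and without any 1 compound. The exact permutation test also called 0 after adjustment, but that count decides nothing. Its smallest p before adjustment is 0.0222 or 0.0152, so a member alone could not be called after adjustment over all class tests. Before adjustment, 0 members had an exact p under 0.05 in each contrast. Abcb1a is dim, and no background level was measured here that would bound its changes.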
